A study of Saccharomyces cerevisiae with 25 samples.

Results

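The genes described here are the 56 yeast genes that encode the proteins of the small ribosomal subunit, from *RPS0A* to *RPS31*. They were chosen by identifier from the 6713 genes listed in the count table. RNA was sequenced from 25 cultures of 5 haploid *Saccharomyces cerevisiae* strains, 5 cultures per strain, and the total of estimated counts ranged from 9216531 to 14644996 per library. All 5 strains derived from BY4741, an S288C laboratory strain of genotype MATa his3Δ1 leu2Δ0 met15Δ0 ura3Δ0, and were grown in glucose medium to a set mean optical density of the plate. YFA1130 and YFA1131 carried wild-type BY alleles throughout, and each had itself been through CRISPR-Swap, a method that exchanges alleles with Cas9 and a shared guide: in YFA1130 it had removed a GFP tag from *FAA4*, and in YFA1131 it had restored *RGT2* where a KanMX cassette had stood. The edited strains carried a missense variant of the glucose sensor gene *RGT2*, called *RGT2(V539I)*, a missense variant of the fatty-acid-responsive activator gene *OAF1*, called *OAF1(L63S)*, or the RM allele of a promoter element of the desaturase gene *OLE1*, called *OLE1(FAR)*. *OAF1(L63S)* and *OLE1(FAR)* were compared with YFA1130, and *RGT2(V539I)* with YFA1131. Cells were harvested in 3 batches of 6, 7 and 12 libraries, RNA was isolated in 5 batches that each held a culture of every strain, and no culture labelled *OLE1(FAR)* was in harvest batch 1. By the study's methods each of the 5 was a single numbered strain grown as separate precultures, so p-values measure the spread between cultures. A strain comparison therefore cannot tell an edit from other differences of the strain that carried it.

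The ribosome's small subunit holds the mRNA and the codon-anticodon contacts, and it is built from an rRNA and a set of proteins made in near-equal numbers. In budding yeast most of these proteins are encoded by a pair of paralogs, called A and B, kept from a whole-genome duplication. Transcription of ribosomal protein genes is known to depend on the factors Rap1, Fhl1, Ifh1 and Sfp1, to rise and fall with growth rate, and to respond to nutrients through TORC1 and protein kinase A.

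The 56 genes encode 32 proteins, 24 by a pair and 8 by a single gene, and they lie on 14 of the 16 chromosomes. An intron interrupts the coding sequence of 36 of the 56, with lengths from 256 to 551 bases, but of only 1 of the 8 single-copy genes, *RPS13*. In 9 of the 24 pairs both copies encode the same protein. Identity of the coding sequences ranged from 84.3% in *RPS27* to 99.2% in *RPS6*, and it bears on the values, because kallisto divides a read that matches both copies between them. Of all windows of 76 bases, the read length, the share found in 1 copy alone was 37.3% in *RPS6*, 71.6% in *RPS4* and 74.5% in *RPS24*, and 94.2% or more in each of the other pairs reported here.

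To show what the reads of the copies are told apart by, the 60-base coding stretch with the most differing bases is given for 3 pairs (RefSeq, build R64), with the bases that differ between A and B in capitals. *RPS9* and *RPS26* are the pairs whose balance moved most with harvest, and *RPS14* is the most uneven pair. The *RPS9* stretches lie in exon 2 of 2 at chrXVI:405670-405729 and chrII:605140-605199, both on the plus strand, and differ at 10 of 60 bases.
RPS9A: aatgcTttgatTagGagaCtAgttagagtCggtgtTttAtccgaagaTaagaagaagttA
RPS9B: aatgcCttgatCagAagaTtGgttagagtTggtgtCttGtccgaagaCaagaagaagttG
The *RPS26* stretches lie in single coding exons at chrVII:148244-148303 on the minus strand and chrV:424237-424296 on the plus strand, and differ at 11 bases.
RPS26A: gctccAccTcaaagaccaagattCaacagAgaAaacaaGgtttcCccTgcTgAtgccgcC
RPS26B: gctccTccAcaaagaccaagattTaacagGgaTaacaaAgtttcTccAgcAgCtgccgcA
The *RPS14* stretches lie in exon 2 of 2 at chrIII:177833-177892 on the minus strand and chrX:74219-74278 on the plus strand, and differ at 12 bases.
RPS14A: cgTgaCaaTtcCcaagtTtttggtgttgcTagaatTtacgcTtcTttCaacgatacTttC
RPS14B: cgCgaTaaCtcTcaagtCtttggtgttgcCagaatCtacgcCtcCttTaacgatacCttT

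The 500 bases upstream of each start codon were searched on both strands for ACCCNTACA, a core of the Rap1 recognition sequence, and for GACGC, the core bound by Fhl1. A match to ACCCNTACA was found upstream of 12 of the 56 genes, or 21.4%, of 22 of 81 genes of the large subunit, or 27.2%, and of 108 of 6019 genes in the genome, or 1.79%. GACGC was found upstream of 27 of the 56 genes, or 48.2%, of 32 of the 81 large-subunit genes, or 39.5%, and of 30.3% of all genes. The Rap1 matches of 3 genes are shown in 30 bases each (RefSeq, build R64, in the direction of the gene), with the match in capitals, because *RPS2* is among the most abundant members and *RPS16A* and *RPS16B* are the pair in which each copy held matches on both strands. None of these stretches overlaps an annotated gene. The match upstream of *RPS2* starts 388 bases before the start codon, at chrVII:277219-277248 on the plus strand.
RPS2: tttaagctagACCCATACAcccgctctatg
The matches nearest to the start codon in the *RPS16* pair start 307 bases before *RPS16A*, at chrXIII:551611-551640 on the plus strand, and 362 bases before *RPS16B*, at chrIV:308132-308161 on the minus strand.
RPS16A: acatattggcACCCATACAttataaaatca
RPS16B: cagaaaaaacACCCATACAtgttgaaaaat

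The libraries fit the shared genotype in that *LEU2*, *URA3* and *MET17* (also called *MET15*) had 0 counts in every library. A pair of libraries went against their labels at genes that set the edited strains apart. *OAF1(L63S)* replicate 2 had 289 CPM of *MGA2*, an activator of *OLE1*, where the other 4 libraries of that strain had 101 to 128 CPM. It was also at 47.6 CPM of *IZH4*, a membrane protein gene of lipid and zinc metabolism, and at 1.58 CPM of *POX1*, the gene of the first enzyme of peroxisomal fatty acid breakdown, both within the ranges of the other *OLE1(FAR)* libraries (45.3 to 50.7 and 0.42 to 2.00 CPM). *OLE1(FAR)* replicate 3 had 2.43 CPM of *IZH4*, beside 2.63 to 3.67 CPM in the other *OAF1(L63S)* libraries, and 119 CPM of *MGA2*, within their range, and its *POX1*, at 28.4 CPM, was above their highest of 22.8 CPM. At these 3 genes each library was therefore closer to the other's labelled strain than to its own. Both libraries were kept under their labels, and results are also given without them. *OAF1(L63S)* replicate 2 was in harvest batch 1. CPM here are counts per 1e+06 counts of the library after edgeR's TMM scaling.

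All 56 genes were counted in every library, with 48 counts at the least, and all passed the filter of counts above 0 in every library. Per kb of coding length, the 8 single-copy genes were the 8 highest. *RPS31* (YLR167W), which encodes a small-subunit protein fused to ubiquitin, was highest at 5626 ± 391 CPM per kb (SD, n = 25). *RPS12* (YOR369C) was at 4488 ± 299 CPM per kb. *RPS2* was at 4241 ± 286, *RPS20* at 3449 ± 211, *RPS3* at 3251 ± 196, *RPS13* at 3110 ± 209 and *RPS15* at 3107 ± 159 CPM per kb. *RPS12* and *RPS2* lay within 1 SD of each other, as did *RPS3*, *RPS13* and *RPS15*. Rps2 and Rps3 lie along the path of the mRNA through the subunit, and Rps12 and Rps20 belong to its head.

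The 48 copies of pairs ranged from 37.2 to 2980 CPM per kb, with a median of 1969. The highest was *RPS1B* at 2980 ± 156. The lowest were *RPS29B* at 37.2 ± 6.4 and *RPS29A* at 37.5 ± 7.3, followed by *RPS28B* at 164 ± 17, *RPS14B* at 238 ± 16, *RPS30B* at 405 ± 65 and *RPS9A* at 449 ± 57 CPM per kb. Several of these low copies are known for control at the RNA level: Rps28 binds the *RPS28B* mRNA and speeds its decay, and Rps14 binds the *RPS14B* pre-mRNA and blocks its splicing. The counts do not separate spliced from unspliced transcripts.

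**Figure D1:**
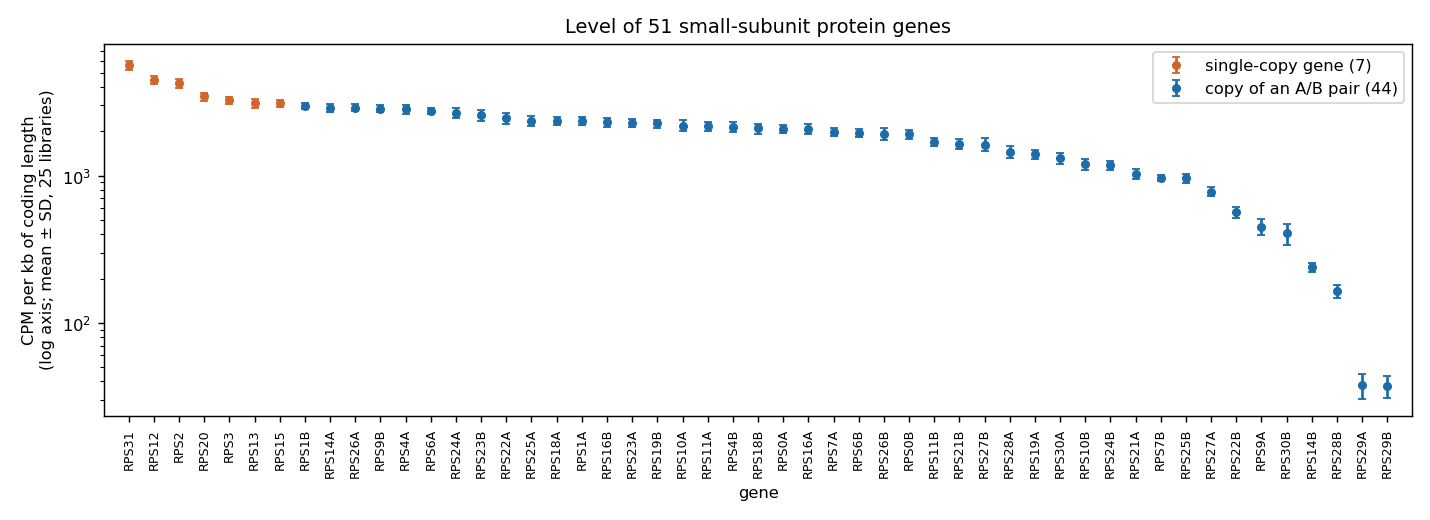
Mean level of 51 of the 56 genes over 25 libraries, in CPM per kb of coding length on a log axis, ordered from highest to lowest, with bars of ± 1 SD. The 7 single-copy genes shown run from 5626 (*RPS31*) to 3107 (*RPS15*), above all 44 copies of pairs shown, which run from 2980 (*RPS1B*) to 37.2 (*RPS29B*).

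When both copies of a pair were added, the proteins came closer together. Among the pairs of 300 or more coding bases reported here, the sums ranged from 2952 CPM per kb in *RPS7* to 5325 in *RPS1*, a range that the single-copy genes, at 3107 to 5626, nearly shared. The sums of the 5 pairs with shorter coding sequences were all lower: 2667 in *RPS21*, 2403 in *RPS27*, 1720 in *RPS30*, 1620 in *RPS28* and 74.8 CPM per kb in *RPS29*, which has 171 coding bases. These 5 are the shortest coding sequences of the set, and the part that transcript length plays in these levels was not tested.

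The A copy was the higher one in 17 of 24 pairs, and its share of the pair's counts averaged between 13.8% and 92.4%. The pairs farthest from 50% were *RPS14*, at 92.4% ± 0.45 for A (SD, n = 25), *RPS28* at 89.9% ± 1.1, *RPS9* at 13.8% ± 1.9, *RPS22* at 81.3% ± 0.85 and *RPS30* at 76.5% ± 2.6. On the other side of 50%, *RPS27* followed *RPS9* at 32.4% ± 1.3. The nearest to 50% were *RPS29* at 50.1% ± 6.3, *RPS0* at 52.2% ± 0.80 and *RPS16* at 47.3% ± 1.4, and 11 pairs lay between 40% and 60%.

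The A share of most pairs varied little in percentage points over the 25 cultures, though by more than counting alone gives. The SD of the A share had a median of 0.91 percentage points over the 24 pairs and was as low as 0.45 in *RPS4* and *RPS14*. It was 6.28 in *RPS29*, the largest, 2.58 in *RPS30* and 1.88 in *RPS9*. *RPS29* had only 110 to 184 counts per library for both copies together, and the SD that counting alone gives at that depth was 4.17 percentage points, so most differences between libraries were not detectable there. For *RPS30* the counting SD was 0.70 and for *RPS9* 0.23 percentage points. In *RPS26* the SD was 1.75 against a counting SD of 0.35, and in *RPS16* 1.45 against 0.34. Every pair had an SD above its counting SD. Counting errors and intervals given here cover counting error only.

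**Figure D2:**
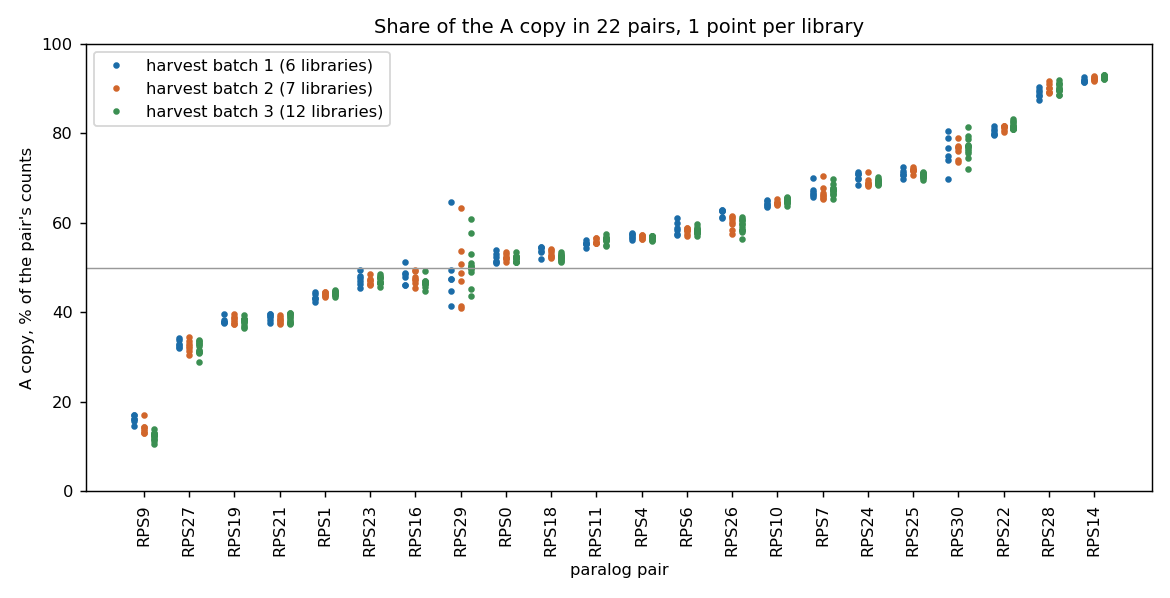
Share of the A copy in the counts of 22 of the 24 pairs, in percent, with 1 point per library and the 3 harvest batches side by side in 3 colours. Shares run from 13.8% on average in *RPS9* to 92.4% in *RPS14*. In *RPS9* alone the points of harvest batch 3 (10.5% to 13.8%) lie wholly below those of batch 1 (14.7% to 17.2%). Over the 58 pairs of both subunits, these batches were apart in 5.17%.

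None of the 56 genes was called in the 4 strain comparisons made. With edgeR's quasi-likelihood test at an FDR of 10% after Benjamini-Hochberg adjustment over 5713 genes, and with harvest, isolation, preparation batch and 2 surrogate variables as terms, 0 of 56 were called for *RGT2(V539I)* against YFA1131, where 0.875% of all genes were called. It was 0 as well with *OAF1(L63S)* set against YFA1130 (1.23% of all genes), with *OLE1(FAR)* against the same control (0.823%) and between the wild types (0.123%). DESeq2 called 0 in each of these as well. At an unadjusted p under 0.05, edgeR had 1, 0, 5 and 2 of the 56 genes in these 4 comparisons, or 1.79%, 0%, 8.93% and 3.57%, against 6.53%, 6.09%, 7.58% and 8.98% of all genes tested.

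The sizes were small as well. The median log2 fold change of the 56 genes was 0.01 for *RGT2(V539I)* (range -0.03 to 0.19), -0.02 for *OAF1(L63S)* (-0.15 to 0.21) and 0.01 for YFA1131 against YFA1130 (-0.11 to 0.12), with a median SE of 0.05 per gene in each. Over all genes tested these medians were -0.01, -0.01 and 0.00. The largest single estimates for *RGT2(V539I)* were *RPS29A* at 0.19 (SE 0.18), *RPS28A* at 0.14 (SE 0.06) and *RPS21A* at 0.09 (SE 0.06), with an adjusted p in edgeR of 0.99, 0.69 and 0.97. For *OAF1(L63S)* they were *RPS29A* at 0.21 (SE 0.16), *RPS28B* at -0.15 (SE 0.08) and *RPS22B* at -0.09 (SE 0.06), with an adjusted p in edgeR of 1.00, 0.92 and 1.00. Between the wild types they were *RPS14B* at 0.12 (SE 0.05), *RPS30B* at -0.11 (SE 0.09) and *RPS29A* at -0.11 (SE 0.17), with an adjusted p in edgeR of 0.50, 0.75 and 0.89.

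In *OLE1(FAR)* the estimates leaned to one side without a call. Of the 56 genes, 53 had a log2 fold change below 0 against YFA1130, with a median of -0.06 (range -0.19 to 0.12), while the median of all genes tested was 0.00. The genes vary together from culture to culture, so this count is a description of the 10 cultures compared. Large estimates were *RPS30B* at -0.19 (SE 0.09) and *RPS29A* at 0.12 (SE 0.16), and the smallest adjusted p in edgeR was 0.48, for *RPS7A*. With YFA1130 replicate 5 left out, 33 of the 56 were below 0 and the median was -0.02. Without *OLE1(FAR)* replicate 1, or with library preparation coded as 4 batches, 44 were below 0, with a median of -0.02 in each. Without *OLE1(FAR)* replicate 2 the median was -0.09, with 21 genes at an unadjusted p under 0.05 and 0 called. The median was -0.05 without the libraries that went against their labels. In the main fit 48 of the 56 were below 0 for *OAF1(L63S)*, 14 for *RGT2(V539I)* and 21 for YFA1131 against YFA1130. The 78 large-subunit genes tested also had a median of -0.06 for *OLE1(FAR)* against YFA1130, so the lean was not particular to the small subunit.

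*RPS7A*, the gene of this comparison with the smallest p, is an example at the level of libraries. In the 5 YFA1130 libraries it was at 1219, 1142, 1001, 1298 and 1231 CPM, and in the 5 *OLE1(FAR)* libraries at 1164, 1160, 996, 1087 and 1072 CPM. Of the *OLE1(FAR)* values 4 lay inside the range of YFA1130 and 1 just below it, so the groups overlapped. The fitted log2 fold change was -0.12 (SE 0.04, adjusted p = 0.48 in edgeR).

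The summed share of the 56 genes did not separate the strains either. In bulk RNA, a change in the mix of cells and a change in RNA per cell cannot be told apart. They took 5.47% to 6.71% of all counts per library, against 7.73% to 9.20% for the 81 genes of the large subunit, and the widest 95% Wilson interval of a library was 0.0303 percentage points. The shares in YFA1130 were 6.02%, 5.73%, 5.51%, 6.36% and 6.53%, in YFA1131 5.47%, 6.09%, 5.70%, 6.12% and 6.06%, and in *RGT2(V539I)* 5.64%, 5.83%, 6.01%, 6.16% and 6.71%. They were 5.83%, 5.69%, 5.84%, 5.77% and 6.51% in *OAF1(L63S)* and 5.89%, 6.01%, 5.52%, 5.75% and 5.71% in *OLE1(FAR)*. All 5 strains overlapped, and *OLE1(FAR)* had the lowest median, 5.75%, against 6.02% in YFA1130. The subunits kept a steady ratio, with 69.5 to 73.4 counts of small-subunit genes for every 100 counts of large-subunit genes.

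No pair had A shares wholly apart in a strain comparison. In 96 comparisons, 24 pairs in each of the 4 strain comparisons, the 5 A shares of 1 strain lay wholly above or below those of the other in 0. Over the pairs of both subunits, 58 in all, the groups were apart in 1.72% of pairs in the *OAF1(L63S)* comparison and in 0% in each of the other comparisons. The means of the 5 strains spanned 0.74 percentage points in the median pair. A single library can make groups overlap, so this measure does not show that no balance changed. The A share of *RPS19* averaged 38.6% ± 0.64 (SD, n = 5) in YFA1130 and 37.3% ± 0.64 in YFA1131. These overlapped through YFA1130 replicate 3, at 37.6%.

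Between harvest batches, small-subunit genes were called in the fit without surrogate variables and not in the fit with them. With the surrogate variables, 0 of 56 genes were called for harvest batch 2 against 1 (2.35% of all genes), for 3 against 1 (1.59%) and for 3 against 2 (0.0525%). DESeq2 also called 0, and at an unadjusted p under 0.05 edgeR had 5, 4 and 1 of the 56, or 8.93%, 7.14% and 1.79%, against 11.8%, 9.96% and 4.90% of all genes. Median log2 fold changes were 0.01, 0.02 and 0.01. Without the libraries that went against their labels they were 0.12, 0.16 and 0.04, with 0 genes called in each. The largest estimate was *RPS30B*, at 0.44 (SE 0.17, adjusted p = 0.36 in edgeR) for batch 3 against 1 and 0.28 (SE 0.13) for batch 2 against 1. *RPS29B* was at 0.24 (SE 0.33) and 0.20 (SE 0.24) in these comparisons, and for 3 against 2 the largest were *RPS30B* at 0.16 (SE 0.10), *RPS27A* at 0.11 (SE 0.05) and *RPS29A* at -0.11 (SE 0.19).

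Without the surrogate variables, 38 of the 56 genes were called for harvest batch 3 against 1, or 67.9%, against 38.2% of all genes. Of these, 37 were higher in batch 3, or 66.1% against 19.1% of all genes, and 1, *RPS9A*, was lower (19.1% of all genes were lower). The median log2 fold change of the 56 was 0.13 (range -0.38 to 0.24), with a median SE of 0.05, beside -0.01 over all genes. For batch 2 against 1 the median was 0.06 with 1 gene called, *RPS7B* (13.8% of all genes), and for 3 against 2 it was 0.07 with 1 gene called, *RPS9A* (3.29% of all genes), so by its medians the set in batch 2 lay between the others. The count for batch 2 against 1 was 0 to 7 with single libraries left out, and 7 without *OAF1(L63S)* replicate 2, or 12.5% against 21.8% of all genes. Without both libraries that went against their labels, 20 of the 56 were called for batch 2 against 1, or 35.7% against 27.1% of all genes, and 0 for 3 against 2, where 0.262% of all genes were called. Both surrogate variables differed with harvest, which accounted for 32.9% and 36.2% of their variance, and the median SE of the 56 genes for batch 3 against 1 was 0.09 with them and 0.05 without. With edgeR's scaling left out, so that library totals alone were used, 16 of the 56 were called, 15 higher and 1 lower. That was 28.6% of the set against 45.7% of all genes, a share below that of all genes, and the median of all genes moved from -0.01 to -0.09. Without YFA1130 replicate 3, 25 were called, 24 of them higher, or 44.6%, beside 1885 of all 5713 genes.

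**Figure D3:**
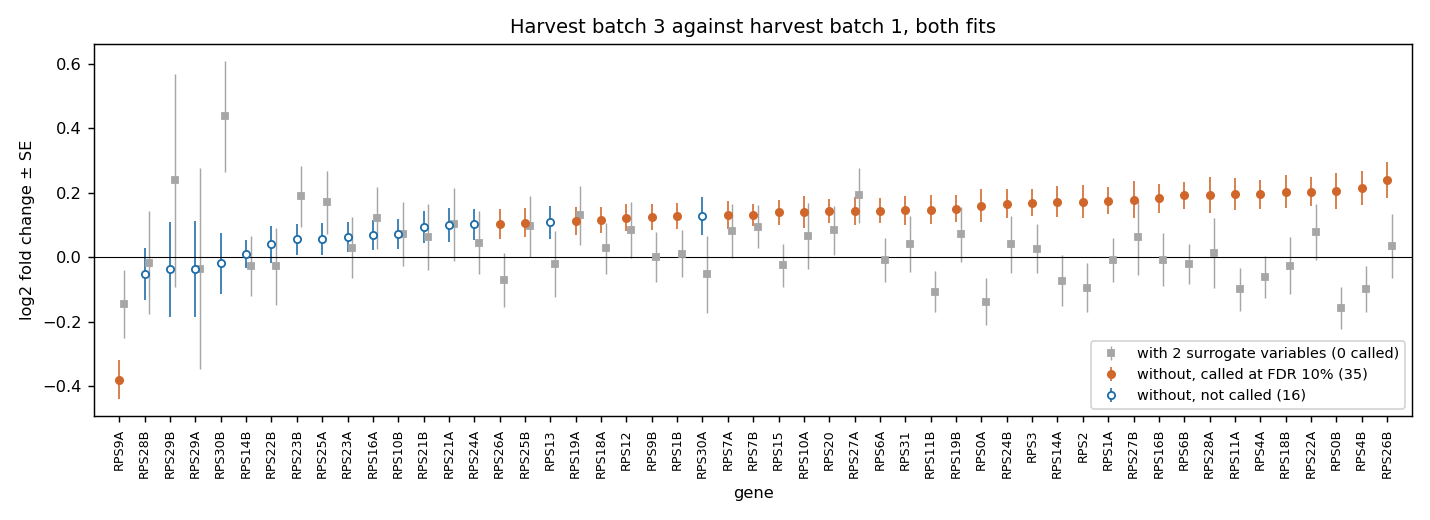
Log2 fold change of 51 of the 56 genes for harvest batch 3 against batch 1, ± SE, in the fit without surrogate variables (circles, filled where called at an FDR of 10%) and with them (grey squares). Circles of 34 of the genes shown are called above 0 and *RPS9A* alone below, at -0.38. None of the grey squares is called, and their bars are longer.

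The 10 genes with the smallest p in this fit were *RPS9A*, *RPS22A*, *RPS6B*, *RPS26B*, *RPS4A*, *RPS1A*, *RPS4B*, *RPS3*, *RPS18B* and *RPS11A*, and all but *RPS9A* were higher in batch 3. *RPS26B*, whose protein sits at the exit of the mRNA channel, rose most, by a log2 fold change of 0.24 (SE 0.06, edgeR adjusted p = 0.0034). *RPS4B* rose by 0.21 (SE 0.05), *RPS22A* by 0.20 (SE 0.04), *RPS18B* by 0.20 (SE 0.05) and *RPS4A* by 0.20 (SE 0.05). *RPS6B*, which encodes the protein phosphorylated downstream of TORC1, rose by 0.19 (SE 0.04, edgeR adjusted p = 0.0024), and *RPS3*, in the mRNA entry channel, by 0.17 (SE 0.04).

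*RPS22A* had 842 to 986 CPM in the 6 libraries of batch 1 (median 855), 840 to 1103 in the 7 of batch 2 (median 939) and 939 to 1080 in the 12 of batch 3 (median 1004). *RPS26B* had 575 to 677 CPM in batch 1 (median 609), 580 to 807 in batch 2 (median 677) and 668 to 809 in batch 3 (median 720). Both rose in their medians from batch to batch, and the ranges of batches 1 and 3 still overlapped. Of the 56 genes, only *RPS9A* had CPM that did not overlap between batches 1 and 3, as did 2.17% of all genes tested.

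The rise was shared by most of the set. Over all genes tested, 19.1% were called higher and 19.1% lower in this fit, the shares to set beside the counts that follow. Of the 8 single-copy genes 7 were called higher, all but *RPS13*, whose log2 fold change was 0.11 with an SE of 0.05. Both copies were higher in 11 of 24 pairs, 1 copy alone in 8, and neither in 5, *RPS21*, *RPS23*, *RPS29* and *RPS30* among them. Of the 10 genes with the lowest level per kb, 3 were called higher and 1 lower, with a median of -0.00, and of the other 46, 34 were called higher, with a median of 0.14. Of the 12 genes with a Rap1 match 8 were called higher, with a median of 0.14, and of the 44 without a match 29, with a median of 0.13. The search took exact matches to a single core, so the 44 cannot be read as genes without a Rap1 site.

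*RPS9A* (YPL081W), the minor copy of a protein of the mRNA entry side that is known for its part in decoding accuracy, went the other way. It had 282 to 341 CPM in the 6 libraries of harvest batch 1 (median 311), 256 to 299 in the 7 of batch 2 (median 274) and 204 to 264 in the 12 of batch 3 (median 244). *RPS9B* (YBR189W), the major copy, had 1548 to 1686 CPM in batch 1 (median 1611), 1465 to 1787 in batch 2 (median 1675) and 1615 to 1844 in batch 3 (median 1723). Batches 1 and 3 did not overlap for *RPS9A* and did for *RPS9B*. In the fit without surrogate variables *RPS9A* fell by 0.38 on the log2 scale from batch 1 to 3 (log2 fold change -0.38, SE 0.06, edgeR adjusted p = 0.00019) and *RPS9B* rose by 0.12 (SE 0.04, edgeR adjusted p = 0.028). With surrogate variables the values were -0.15 (SE 0.11, edgeR adjusted p = 0.71) for *RPS9A* and -0.00 (SE 0.08) for *RPS9B*.

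**Figure D4:**
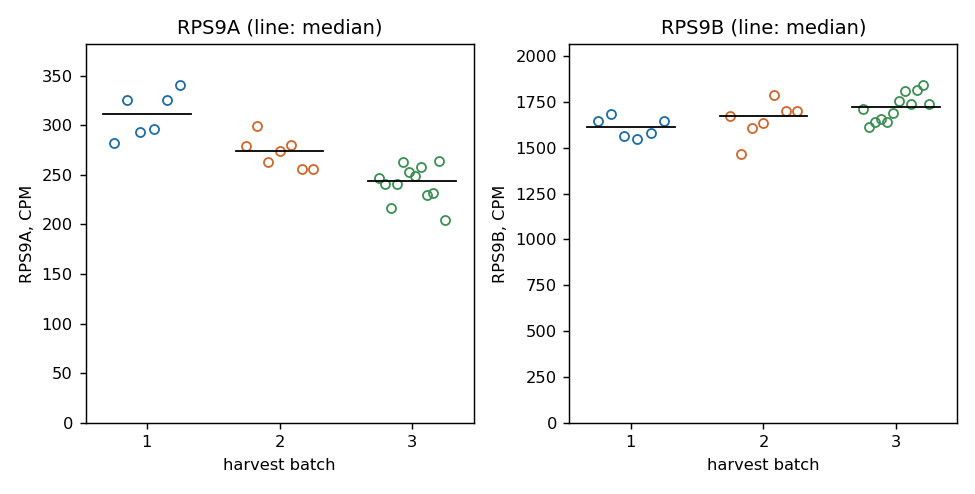
CPM of *RPS9A* (left) and *RPS9B* (right) in each library by harvest batch, with a line at the median and axes that start at 0. *RPS9A* medians step down from 311 to 274 to 244 CPM, and *RPS9B* medians step up from 1611 to 1675 to 1723 CPM.

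The *RPS9A* ranges of batches 1 and 3 did not overlap over all libraries, so the same order within strains is no further support. In YFA1130 *RPS9A* was at 297 CPM in the library of batch 1 and at 258, 229 and 232 in those of batch 3, and in YFA1131 at 326 and 341 against 264 and 204 CPM. In *RGT2(V539I)* it was at 294 against 253 and 249 CPM, and in *OAF1(L63S)* at 282 and 326 against 247 and 241 CPM. That every library of batch 1 was above every library of batch 3 in each of these 4 strains was thus fixed in advance. The log2 fold change stayed between -0.46 and -0.33 in every alternative of the fit without surrogate variables that was run on single genes, at an FDR under 10% in each, and was -0.40 without the libraries that went against their labels.

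The A share of *RPS9* went from 16.2% ± 0.92 (SD, n = 6) in batch 1 to 14.2% ± 1.3 (n = 7) in batch 2 and 12.3% ± 0.88 (n = 12) in batch 3. *RPS9* was the 1 of 24 pairs whose shares in batches 1 and 3 were apart. Over the 58 pairs of both subunits 3, or 5.17%, were apart, the others being *RPL9* and *RPL22*, so this was not particular to *RPS9*. *RPS26* moved next most, from 62.3% ± 0.83 in batch 1 to 59.3% ± 1.4 in batch 3, where the lowest library of batch 1, at 61.1%, was below the highest of batch 3, at 61.3%. The A share of *RPS14* went from 91.9% ± 0.39 to 92.6% ± 0.33, also with overlap. Rps9 differs by 5 residues between its copies and Rps26 by 2, so the proteins made from both copies are close but not the same.

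Over all strains, the medians of the summed share rose in the order of the harvests. In batch 1 it was between 5.47% and 6.51% of all counts (median 5.66%), in batch 2 between 5.52% and 6.71% (median 5.83%) and in batch 3 between 5.75% and 6.53% (median 6.02%). The order did not hold within each strain. In *OAF1(L63S)* batches 1, 2 and 3 were at 6.10%, 5.84% and 5.80%, from 2, 1 and 2 libraries. Its batch 1 mean includes replicate 2, which went against its label. In YFA1131 the 1 library of batch 2, at 6.12%, was above the mean of the 2 of batch 3, at 6.07%. In *RGT2(V539I)* batch 2 averaged 6.27% and batch 3 6.09%, from 2 libraries each. In YFA1130 the values rose in order, from 5.51% and 5.73%, 1 library each, to a mean of 6.30% over 3 libraries. The ranges overlapped through *OAF1(L63S)* replicate 5, at 6.51% the highest of batch 1. That library belonged to RNA isolation batch 3, whose 5 libraries had 5.89% to 6.71%, with a median of 6.36%, against 5.47% to 6.53% and a median of 5.80% in the other 20. YFA1131 replicate 4 and *RGT2(V539I)* replicate 5, both of harvest batch 2, belonged to RNA isolation batch 3 as well. Without RNA isolation batch 3, the 5 libraries of harvest batch 1 had 5.47% to 5.70% and the 10 of batch 3 had 5.75% to 6.53%, and 47 of the 56 genes, or 83.9%, were called for harvest batch 3 against 1 in the fit without surrogate variables, against 25.7% of all genes.

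**Figure D5:**
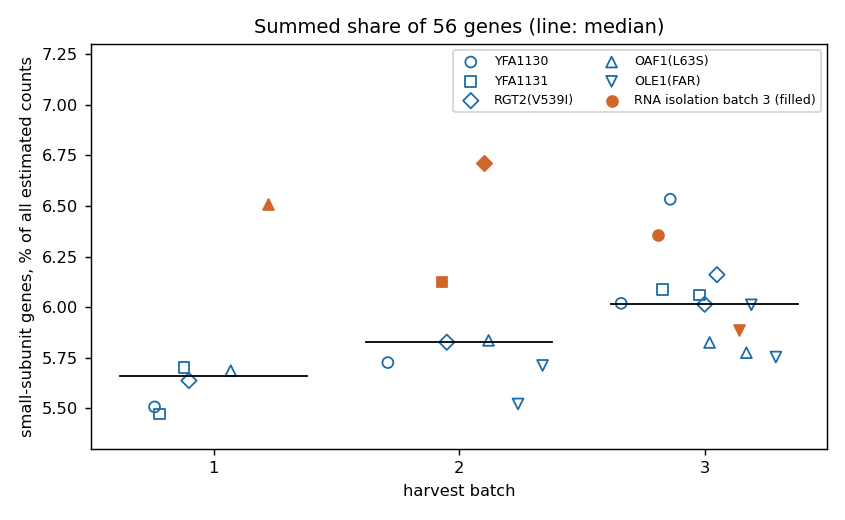
Summed share of the 56 genes in all estimated counts, in percent, for each of 25 libraries by harvest batch, with a marker per strain, RNA isolation batch 3 filled and a line at the median. Medians step up from 5.66% to 5.83% to 6.02%, and 4 of the 5 filled points lie above the median of their harvest batch. The vertical axis does not start at 0.

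RNA isolation batch 3 also differed in other short genes. The 56 genes lay a median of 0.08 above their own means there on the log2 scale, 793 other genes of under 600 bases lay 0.09 above, and 1327 other genes of over 2000 bases lay 0.06 below. In harvest batch 1 the 56 genes lay 0.06 below their means and the 81 genes of the large subunit 0.07 below. The other short genes lay 0.01 above there and the other long genes 0.02 above. The part of gene length in the shares was not tested.

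The other genes of the ribosome were read from 4 lists. Of 81 genes of the large subunit 78 were tested, and 61 were higher and 2 lower for harvest batch 3 against 1 without surrogate variables, with a median of 0.15. That was 80.8% called, against 38.2% of all genes (19.1% higher and 19.1% lower). The 2 lower were *RPL22B* at -0.43 (SE 0.10) and *RPL9B* at -0.16 (SE 0.04). Of 17 assembly factors of the small subunit and chaperones of its proteins, 15 (88.2%) were higher and 0 lower, with a median of 0.23. *DIM1*, which methylates the small-subunit rRNA, rose by 0.52 (SE 0.07), *LTV1*, an export and assembly factor, by 0.45 (SE 0.06), *TSR4*, a chaperone of Rps2, by 0.41 (SE 0.05), and *YAR1*, a chaperone of Rps3, by 0.39 (SE 0.06). In batch 2 against 1, 12 of the 17 (70.6%) were already higher, where 13.8% of all genes were called in either direction. Of 30 matched genes of the mitochondrial small subunit 0 were higher and 9 lower for batch 3 against 1. The 9 were 30% of the list, below the 38.2% of all genes called and above the 19.1% called lower. *PET123* at -0.19 (SE 0.07) and *MRP51* at -0.10 (SE 0.03) were among them. Of 14 regulators of ribosomal protein genes, *RAP1*, *FHL1*, *IFH1* and *SFP1* among them, 0 were called for batch 3 against 1, and *CRF1*, a corepressor, was higher for batch 3 against 2 by 0.60 (SE 0.14). Over all genes 3.29% were called for batch 3 against 2.

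With the surrogate variables, none of these lists held a call in batch 3 against 1, and over the 7 comparisons 2 genes were called, both of the mitochondrial small subunit. *RSM28* was higher in *RGT2(V539I)* than in YFA1131 by 0.18 (SE 0.05, edgeR adjusted p = 0.089), and *PET123* was higher in harvest batch 2 than in 1 by 0.26 (SE 0.07, edgeR adjusted p = 0.075). Each was 3.33% of that list, against 0.875% and 2.35% of all genes called. Without the surrogate variables *MRP51*, *RSM23* and *RSM28* were higher in *RGT2(V539I)*, or 10% of the list, beside 37 of all 5713 genes called. No other strain comparison called a gene of the 4 lists.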

How the data were processed

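Per the labels and the study's methods, poly(A) RNA was made into strand-specific libraries. Reads were trimmed with Trimmomatic 0.38, and kallisto assigned them to Ensembl 93 transcripts of sacCer3 (R64). The deposited values are the authors' kallisto estimated counts per gene and library, not normalized. They were rounded to whole numbers (6.46% were not whole), and the 5713 genes above 0 in all 25 libraries were tested. edgeR 4.0.16 (R 4.3.3) fitted TMM-scaled counts with a quasi-likelihood model of genotype, 3 harvest, 5 RNA isolation and 2 library preparation batches, taken from the study's sample sheet, and 2 surrogate variables from sva 3.50.0. Calls were made at an FDR of 10%. Each RNA isolation batch holds 1 culture of every strain and is the block of the design. Within it, deviations from the group means correlated with r from -0.47 to 0.53. Alternatives were DESeq2 1.42.0, other scalings, filters and terms, and leaving out libraries. The scripts were tested on simulated data. Library pairs of a strain differed beyond counting noise, so none was counted as 1 sample.

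The members and lists were chosen with earlier results of these data known, and the harvest fit without surrogate variables was followed up after its result was seen. Genes were named by rule: members called (up to 10 per comparison), the 3 largest changes per comparison, single-copy genes, the 5 highest and lowest levels, and the pairs most uneven, most even or most variable. Others, such as *RPS7A*, *RPS13* and *RPS9B*, were chosen after their values were seen. A few members that this rule covers are counted in the totals but not reported here by name. Intervals are 95% Wilson intervals. Replicates are numbered in accession order.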

Additional observations from a re-analysis of the deposited data

Results flagged for a closer look

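In groups of 5 cultures of a strain, a library was set apart where its gap to the nearest other culture was large against the range of all 5 (Dixon's 95% limit). Chance sets apart about 1 in 20 groups, and 15 of the 120 groups examined held such a library. *OAF1(L63S)* replicate 5 accounted for 6 of them. Its share of small-subunit genes was 6.51% against 5.69% to 5.84% in the other cultures of the strain, and it had 73.4 counts of small-subunit genes per 100 of the large subunit against 69.9 to 70.7. In the same library the A share was 42.3% for *RPS1* (others 44.6% to 44.7%), 70.1% for *RPS7* (67.1% to 67.9%), 51.2% for *RPS16* (45.5% to 46.8%) and 54.6% for *RPS18* (51.9% to 52.4%). *RGT2(V539I)* replicate 5, also of RNA isolation batch 3, had 72.9 counts per 100 of the large subunit against 70.7 to 71.2.

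*OLE1(FAR)* replicate 3, which went against its label, had A shares of 49.4% for *RPS16* (others 46.6% to 47.2%) and 54.1% for *RPS18* (others 52.6% or less). *OAF1(L63S)* replicate 2, the other such library, had 64.7% for *RPS29* (49.5% to 53.6%), with a 95% Wilson interval of 56.4% to 72.2%. YFA1130 replicate 5 had 59.8% for *RPS6* (58.5% to 58.7%) and 28.8% for *RPS27* (32.4% to 33.7%), and YFA1130 replicate 4 had 49.2% for *RPS16* (46.2% to 46.7%). Single cases were *RPS26* in *OAF1(L63S)* replicate 4 at 58.5% (61.1% to 61.3%) and *RPS10* in *RGT2(V539I)* replicate 3 at 65.9% (64.2% to 64.6%).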

How the results depend on the processing

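The count of called small-subunit genes was 0 in each of the 4 strain comparisons under all 12 other settings, among them the fit without the replicate block of RNA isolation batch (0 called). Leaving out single libraries gave 0 calls for *RGT2(V539I)*, *OLE1(FAR)* and YFA1131, and 0 to 1 for *OAF1(L63S)*, where *RPS28B* was called without YFA1130 replicate 3 (log2 fold change -0.30, edgeR adjusted p = 0.087). For harvest batch 2 against 1 the count was 1 without surrogate variables, 1 with harvest batch as the only term, and 0 to 1 with single libraries left out, where *RPS0B* was called without *RGT2(V539I)* replicate 1. For 3 against 1 it was 38 without surrogate variables and 31 with harvest batch alone, and for 3 against 2 it was 1 without surrogate variables. With harvest batch alone, 55.4% of the set and 34.5% of all genes were called for 3 against 1. The 38 calls of the fit without surrogate variables became 16 with library totals alone (28.6% against 45.7% of all genes), 24 of 32 proteins with the counts of paralogs summed (75.0%, beside 2163 of 5689 genes), 31 without the replicate block (55.4% against 33.1%), and 25 to 43 with single libraries left out. In that fit the counts with single libraries left out were 0 to 7 for batch 2 against 1, with 7 without *OAF1(L63S)* replicate 2, and 0 to 2 for 3 against 2, with 2 without YFA1130 replicate 4 or *OLE1(FAR)* replicate 5. These settings of the fit without surrogate variables were added after seeing the data, and the cause of each change was not tested. A fit to only the 10 libraries of the strains compared could not be made for harvest batches. All 24 pairs passed the minimum of 20% copy-specific windows. The A shares of *RPS9*, *RPS26*, *RPS16* and *RPS14* kept their directions between harvest batches 3 and 1 under every setting run. Depth limits *RPS29* most, with 110 to 184 counts per pair and library.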
